A study of Mus musculus with 12 samples.

Results

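The miR-181 family comprises 6 mature miRNAs here, taken by name from the 1929 rows of the deposited count table. The choice was made with earlier results of these data known. They are miR-181a-5p, miR-181b-5p, miR-181c-5p and miR-181d-5p, the main products of the family's hairpins, with miR-181a-1-3p and miR-181a-2-3p, the opposite strands of both miR-181a hairpins. All 6 were detected in all 12 libraries and all 6 passed the filter on low counts, which kept 607 miRNAs. A further 4 arms of miR-181 hairpins (miR-181b-1-3p, miR-181b-2-3p, miR-181c-3p and miR-181d-3p) stand in the table and are described beside them.

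Small RNA was sequenced from the livers of 12 C57BL/6 mice, 1 library per mouse. All 12 mice received repeated intraperitoneal injections of carbon tetrachloride (CCl4), a toxin whose hepatocyte injury leads to scarring and serves as a model of hepatic fibrosis. The PZH group (n = 6) also received Pien Tze Huang (PZH), a compound remedy of Chinese medicine, daily into the stomach, and the water group (n = 6) was given double distilled water by the same route. The series holds no uninjured liver, so each difference below lies within CCl4-injured livers, and the sources used here give neither the age nor the sex of the mice.

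MicroRNAs pair with messenger RNAs mainly through their seed, the bases near the 5′ end of the mature strand, and lower the output of the messages they bind. The miR-181 family is best known from the immune system: miR-181a is abundant in developing thymocytes and tunes the sensitivity of T cells to antigen. In endothelial cells miR-181b restrains NF-kappaB signalling through the importin that carries NF-kappaB into the nucleus. In liver, miR-181a and miR-181b have been linked to transforming growth factor beta signalling and to the activation of stellate cells, the collagen-producing cells of the fibrotic liver.

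The 4 5p members carry the same seed and differ downstream of it, which is why their sequences are shown together. They are given 5′ to 3′ from RefSeq on GRCm38.p6, with bases 2 to 8, the seed, in capitals, and the prefix mmu marks the mouse.
mmu-miR-181a-5p: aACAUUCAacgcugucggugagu
mmu-miR-181b-5p: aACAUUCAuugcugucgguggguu
mmu-miR-181c-5p: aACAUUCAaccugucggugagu
mmu-miR-181d-5p: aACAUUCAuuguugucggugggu
mmu-miR-181a-1-3p: aCCAUCGAccguugauuguacc
mmu-miR-181a-2-3p: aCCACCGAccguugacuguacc

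Among the 1679 mature mouse miRNAs in that RefSeq table, the seed ACAUUCA belonged to the 4 5p members and to no other. The sequences fall into 2 like pairs. The sequence of miR-181c-5p can be turned into that of miR-181a-5p by 1 edit, since it is 1 base shorter, and miR-181d-5p differs from miR-181b-5p by 2 edits, the substitution C12U and a missing last base. Between miR-181a-5p and miR-181b-5p there are 4 edits, of which 3 are the substitutions A9U, C10U and A21G and the fourth is the additional last base of miR-181b-5p. Positions are counted from 1 at the 5′ end, and the first-named miRNA's base is written first. The likeness of sequence therefore cuts across the genomic clusters, in which a sits beside b and c beside d. The sources used here do not say how reads that match more than 1 relative were counted, so each level may hold reads of its closest relative.

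In GRCm38, Mir181a-1 (chr1:137966455-137966541, plus strand) and Mir181b-1 (chr1:137966639-137966718, plus strand) lie 97 bases apart. Both fall within an intron of the non-coding gene Gm4258 and overlap an exon of the lincRNA A430106G13Rik on the same strand. Mir181a-2 (chr2:38852735-38852810, plus strand) and Mir181b-2 (chr2:38853830-38853918, plus strand) lie 1019 bases apart, antisense to an intron of the nuclear receptor gene Nr6a1. Mir181c (chr8:84178873-84178961, minus strand) and Mir181d (chr8:84178716-84178787, minus strand) lie 85 bases apart in an intron of Nanos3, a gene of germ cell development, on its strand. Host genes and hairpin positions are those of GENCODE M21.

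The hairpins Mir181a-1 and Mir181a-2 are shown because they give the same miR-181a-5p and can be told apart only by their 3p arms. Capitals mark the 5p arm and then the 3p arm.
Mir181a-1: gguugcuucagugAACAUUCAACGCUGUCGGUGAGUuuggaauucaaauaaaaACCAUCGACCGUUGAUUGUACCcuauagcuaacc
Mir181a-2: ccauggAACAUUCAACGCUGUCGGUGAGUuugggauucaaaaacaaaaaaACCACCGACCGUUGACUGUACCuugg
The 3p arms differ by the substitutions U5C and U16C, counted from 1 at the 5′ end of miR-181a-1-3p, and the first of these lies in the seed. The seed of miR-181a-1-3p, CCAUCGA, is shared with miR-181c-3p from chromosome 8. Each 3p arm comes from 1 locus, though miR-181a-1-3p lies 2 edits from both miR-181a-2-3p and miR-181c-3p and its count may hold reads of either, while miR-181a-5p and miR-181b-5p each sum the loci on chromosomes 1 and 2.

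Total counts per library ranged from 4961913 to 20211784. The hepatocyte markers miR-122-5p, miR-122-3p, miR-192-5p, miR-194-5p, miR-148a-3p and miR-802-5p were all detected, at a summed level of 202898 to 264104 CPM with PZH and 221357 to 256415 CPM with water. Levels are CPM, the count scaled to a library of fixed size, after TMM scaling, which corrects for library composition. In bulk liver RNA, fewer cells of a type and less miRNA per cell cannot be told apart.

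Of the family's 5p counts, most belonged to miR-181a-5p. It held 78.9% to 81.7% of them in the PZH libraries and 82.6% to 85.4% in the water libraries, ranges that did not overlap. How often such shares separate the groups in other families was not examined. The share of miR-181b-5p was 9.03% ± 0.662 with PZH and 6.87% ± 0.730 with water (SD, n = 6 each). The share of miR-181c-5p was 7.39% ± 0.688 with PZH and 7.03% ± 0.791 with water, and that of miR-181d-5p was 3.27% ± 0.493 with PZH and 2.50% ± 0.387 with water. Together the 6 members held 0.133% ± 0.0181 of all miRNA counts with PZH and 0.142% ± 0.00847 with water (SD, n = 6 each).

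The order of mean levels was miR-181a-5p, miR-181b-5p, miR-181c-5p, miR-181d-5p, miR-181a-1-3p and miR-181a-2-3p, with the arm miR-181c-3p close to miR-181a-1-3p. Mature lengths were 22 to 24 bases, so levels were compared without a length correction. Neighbours in this order kept their rank in all 12 libraries except at 1 place among the members. The level of miR-181b-5p exceeded that of miR-181c-5p in 6 of 6 PZH libraries and in 2 of 6 water libraries. The count of miR-181b-5p over that of miR-181c-5p ran from 1.05 to 1.39 with PZH and from 0.814 to 1.34 with water. This swap of rank was noticed in the values and was not tested. Outside the members, miR-181a-1-3p exceeded miR-181c-3p in 3 of 6 PZH and 3 of 6 water libraries, so that pair could not be ordered.

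The central comparison asked whether PZH altered these miRNAs in the injured liver. By edgeR's quasi-likelihood test, 0 of the 6 members passed an adjusted p of 0.05, while 21.3% of the 607 tested miRNAs did. At an unadjusted p under 0.05 there were 2 members, miR-181a-5p and miR-181b-5p, against 32.3% of all tested miRNAs. DESeq2 called 1 member, miR-181b-5p, against 23.7% of miRNAs, and limma-voom called 0 members against 19.9%. Among all miRNAs tested, 12.9% were called higher by DESeq2. The members' median log2 fold change was -0.12 and that of all tested miRNAs was -0.03. Of the 6 members, 2 had positive fold changes, miR-181b-5p and miR-181d-5p.

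**Figure D1:**
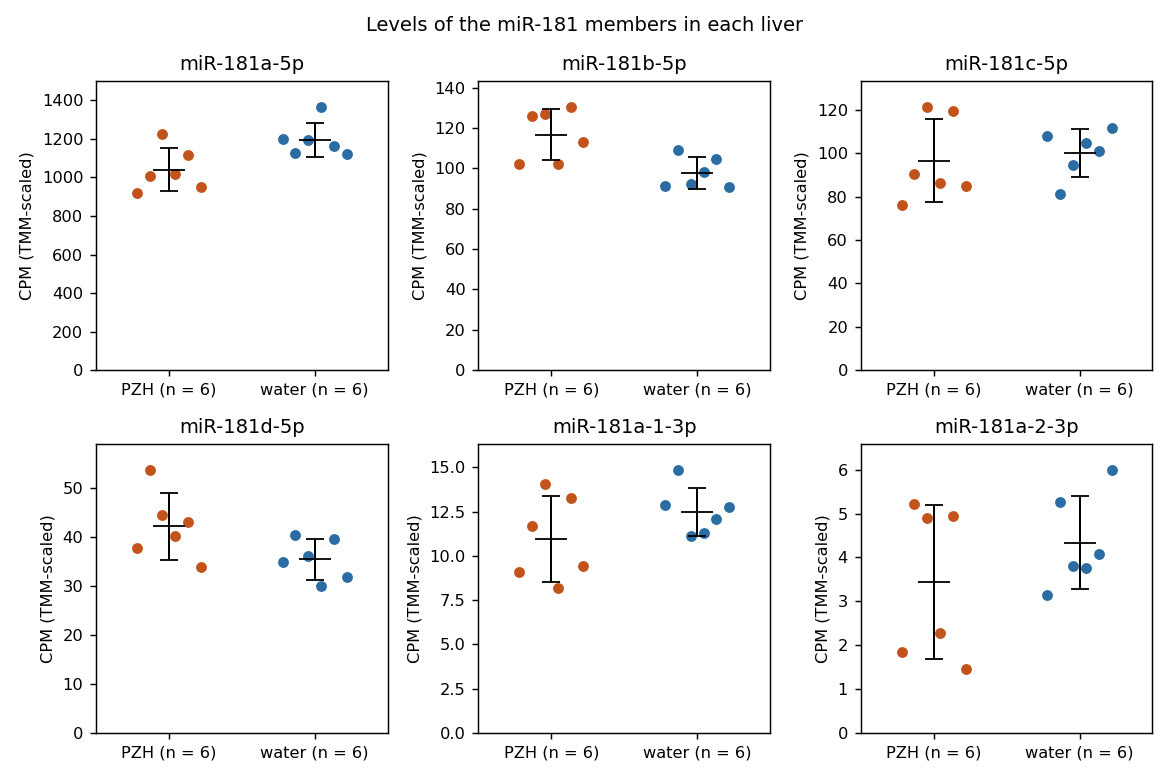
Levels of the 6 members in each liver, in CPM after TMM scaling on axes that start at 0, with PZH left of water; each point is 1 mouse and bars are the mean ± SD (n = 6 each). For miR-181a-5p, 5 of 6 PZH points lie below every water point, and for miR-181b-5p 4 of 6 PZH points lie above every water point. PZH replicate 5 of miR-181a-5p lies only just below, at 1118 CPM against 1120 CPM in the lowest water liver.

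The most abundant member, miR-181a-5p, had a lowest, median and highest level of 921, 1013 and 1226 CPM in PZH livers, against 1120, 1179 and 1364 CPM in water livers. Of the PZH livers, 5 of 6 lay below every water liver, and PZH replicate 3, at 1226 CPM, lay above 5 of the 6. PZH replicate 5, at 1118 CPM, lay only just below the lowest water liver at 1120 CPM. Its place depended on TMM scaling: as a share of all counts miR-181a-5p was 0.120% there, against 0.107% in water replicate 2. The mean was 1041 ± 113 CPM with PZH and 1194 ± 89.3 CPM with water (SD, n = 6 each). The log2 fold change was -0.20 (SE 0.08, 95% interval -0.38 to -0.02), which did not pass after adjustment (edgeR adjusted p = 0.111). It passed in 0 of 20 alternative analyses, in which the edgeR, DESeq2 or limma-voom adjusted p ran from 0.0513 to 0.521.

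The level of miR-181b-5p, the partner of miR-181a in both clusters, lay the other way. Its lowest, median and highest levels were 102, 120 and 130 CPM in PZH livers, against 90.7, 95.2 and 109 CPM in water livers. All 6 PZH livers stood above the water median, and 4 of 6 above every water liver. The mean was 117 ± 12.8 CPM with PZH and 97.7 ± 7.80 CPM with water (SD, n = 6 each). The log2 fold change was 0.26 (SE 0.10, 95% interval 0.05 to 0.46), with an edgeR adjusted p of 0.0771. The call depended on scaling, filter and tool: miR-181b-5p rose by DESeq2 (log2 fold change 0.29, adjusted p = 0.0106), by edgeR with RLE scaling (0.29, adjusted p = 0.0430) and by edgeR with a filter of 10 CPM in 6 libraries (0.34, adjusted p = 0.0219). Of all miRNAs, 11.9% were called higher with RLE scaling and 17.2% with that filter. In the other 17 of 20 alternatives it did not pass, with the adjusted p over all 20 running from 0.0106 to 0.210.

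**Figure D2:**
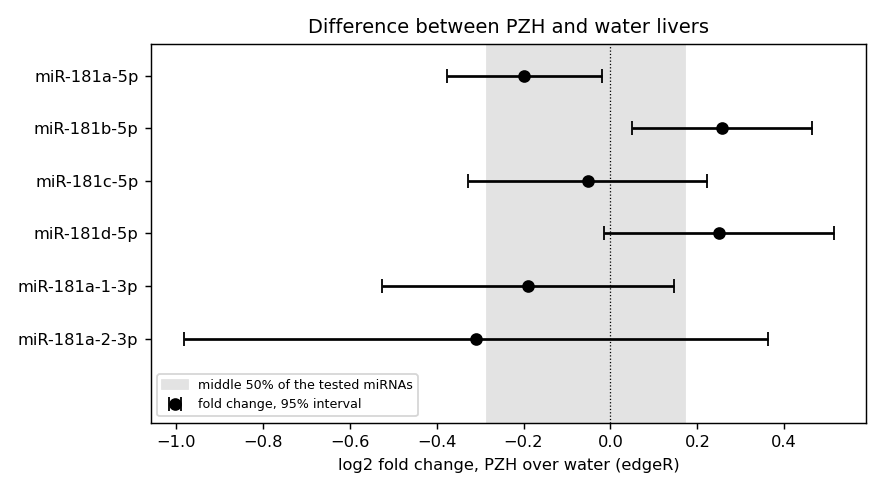
Log2 fold change of PZH over water for the 6 members by edgeR, with 95% intervals; the grey band spans the middle 50% of all 607 tested miRNAs. The interval of miR-181a-5p runs from -0.38 to -0.02 and that of miR-181b-5p from 0.05 to 0.46, while the intervals of the other members include 0.

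On chromosome 8, miR-181c-5p had lowest, median and highest levels of 76.0, 88.4 and 121 CPM in PZH livers, against 81.3, 103 and 111 CPM in water livers. The groups overlapped, and the PZH livers spread wider than the water livers. Its log2 fold change was -0.05 (95% interval -0.33 to 0.22, edgeR adjusted p = 0.873), so changes of up to 1.17-fold upward or to 0.797 of the water level lay within the interval. The sign turned positive with the filter of 10 CPM and without PZH replicate 1.

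Its cluster neighbour miR-181d-5p had levels of 33.9, 41.6 and 53.7 CPM (lowest, median, highest) in PZH livers, against 30.0, 35.5 and 40.5 CPM in water livers. In PZH livers 5 of 6 values lay above the water median and 3 above every water liver. The log2 fold change was 0.25 (SE 0.12, 95% interval -0.02 to 0.51), with an edgeR adjusted p of 0.183. Its estimate was close to that of miR-181b-5p, the member it is nearest to in sequence, and it passed in 0 of 20 alternatives.

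The strands opposite miR-181a-5p were scarce. The chromosome 1 strand, miR-181a-1-3p, stood at 8.20, 10.6 and 14.0 CPM (lowest, median, highest) in PZH livers, against 11.1, 12.4 and 14.8 CPM in water livers. The groups overlapped (log2 fold change -0.19, 95% interval -0.53 to 0.15, edgeR adjusted p = 0.473). The chromosome 2 strand, miR-181a-2-3p, stood at 1.45, 3.59 and 5.21 CPM in PZH livers, against 3.15, 3.94 and 5.99 CPM in water livers. It rested on 12 to 52 counts per PZH library and 29 to 101 per water library, and a count of 12 has an exact 95% Poisson interval of 6.20 to 21.0 counts. The PZH livers split into 3 below every water liver and 3 within the water range (log2 fold change -0.31, 95% interval -0.98 to 0.36, edgeR adjusted p = 0.578). The spread between PZH mice exceeded counting error, and the estimate ran from -0.44 to -0.16 with single libraries left out, reaching -0.16 without PZH replicate 6 and -0.19 without PZH replicate 1.

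Of the arms that are not members, miR-181c-3p averaged 10.6 ± 3.59 CPM with PZH and 12.3 ± 0.985 CPM with water (SD, n = 6 each; log2 fold change -0.20, edgeR adjusted p = 0.572). Its PZH values spread from 5.08 CPM in replicate 1 to 15.7 CPM in replicate 3, with 4 below every water library and 1 above. The other 3 arms did not pass the filter. For miR-181b-1-3p there were 0 to 13 counts per PZH library and 2 to 13 per water library. For miR-181b-2-3p there were at most 6 counts with PZH and 8 with water, with 0 in 3 libraries of each group. For miR-181d-3p no library held more than 2 counts, and it was at 0 in 3 PZH and 4 water libraries. A count of 0 allows up to 3 counts, which is 0.156 to 0.599 CPM by library after TMM scaling, and these floors and intervals cover counting error only. No cell held a count of 1, so a 0 may stand for 1, and the floors would then be too low.

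Ratios between members within a library do not depend on scaling, and 4 were compared by exact permutation of the group labels over all possible assignments (two-sided). Raw counts with 1 added were used, and p-values were adjusted over the 4 ratios by Benjamini-Hochberg. The ratios were chosen with earlier results of these data known, and this adjustment does not cover that choice. The ratio of miR-181a-5p to miR-181b-5p, the neighbours on chromosomes 1 and 2, fell with PZH. It was 9.01, 7.99, 9.63, 9.997, 8.58 and 8.40 in PZH replicates 1 to 6, against 13.1, 10.3, 12.9, 13.9, 11.1 and 12.3 in water replicates 1 to 6. All 6 PZH libraries lay below every water library. How often ratios of other miRNA pairs separate the groups was not examined. Full separation also occurred in levels of single miRNAs outside the family, such as miR-126a-3p. Of all tested miRNAs, 32.3% had an unadjusted edgeR p under 0.05, which is a different measure from full separation. The geometric mean ratio was 8.91 with PZH and 12.2 with water, 27.0% lower with PZH. On the log2 scale the means were 3.16 ± 0.12 with PZH and 3.61 ± 0.16 with water (SD, n = 6 each), a difference of -0.45 (exact permutation p = 0.00216, the smallest this design can give, adjusted p = 0.00866). Leaving out any 1 library kept the difference between -0.50 and -0.42 (exact permutation p of 0.00216 to 0.00433). The groups stay fully separated without any 1 library, so these p-values could only be near their smallest and add no further test. The closest approach was between water replicate 2 at 10.3 and PZH replicate 4 at 9.997, and without water replicate 2 the difference was -0.50.

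The ratio of miR-181c-5p to miR-181d-5p, the chromosome 8 neighbours, had a lowest, median and highest value of 1.68, 2.32 and 2.78 with PZH, against 2.01, 2.85 and 3.49 with water. All 6 PZH libraries lay below the water median but only 2 below every water library. The log2 difference was -0.31, in the same direction as for miR-181a-5p to miR-181b-5p, and did not pass (exact permutation p = 0.104, adjusted p = 0.208). Water replicate 2 had the lowest ratio of its group, and without it the difference was -0.41 with an unadjusted exact permutation p of 0.0368. With any other single library left out, the unadjusted exact permutation p ran from 0.0736 to 0.203.

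The ratio of miR-181a-1-3p to miR-181a-2-3p, which sets the chromosome 1 locus against the chromosome 2 locus, ran from 2.22 to 6.08 with PZH and from 2.10 to 4.02 with water. Medians were 3.15 with PZH and 2.89 with water, and the groups overlapped (log2 difference 0.25, exact permutation p = 0.351, adjusted p = 0.468). In every library the chromosome 1 strand was the more abundant. The ratio of miR-181a-5p to both 3p arms together, the balance of the strands of the miR-181a hairpins, had a median of 73.8 with PZH and 73.1 with water (log2 difference 0.06, exact permutation p = 0.710, adjusted p = 0.710). Its sign turned negative without water replicate 2 (-0.0085) and without PZH replicate 4 (-0.017).

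**Figure D3:**
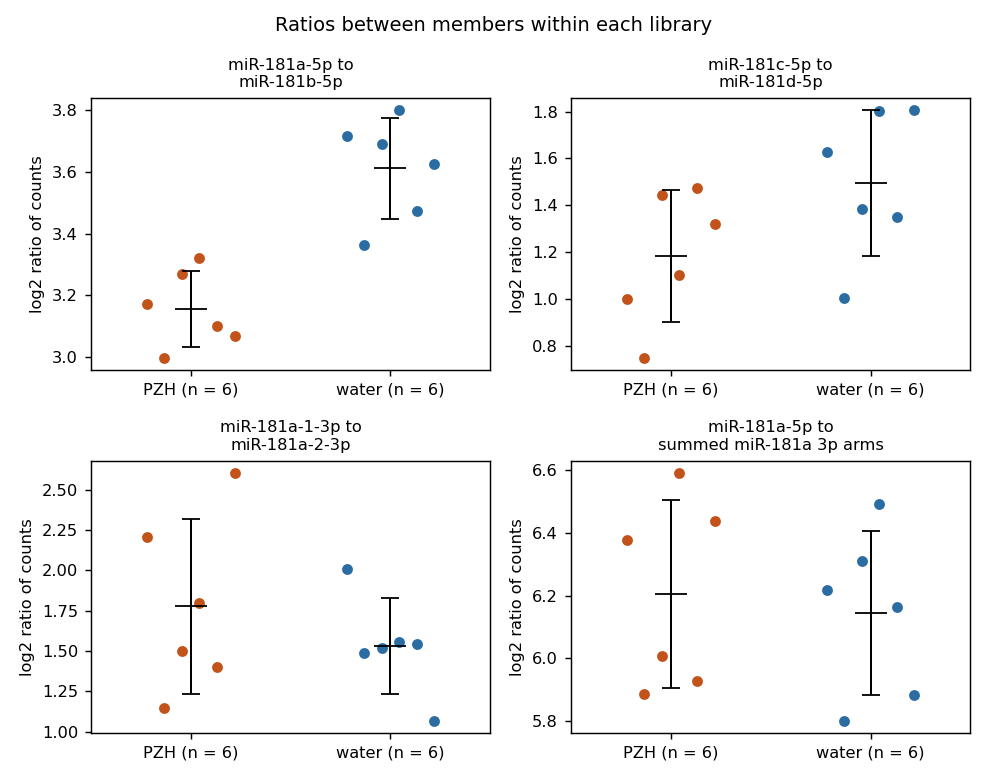
Log2 ratios of counts between members within each library, with PZH left of water; each point is 1 library and bars are the mean ± SD (n = 6 each). For miR-181a-5p over miR-181b-5p the 6 PZH libraries lie below all 6 water libraries, with means of 3.16 with PZH and 3.61 with water, while the groups overlap in the other 3 panels.

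The members also differed in how they varied between mice of 1 group. Log2 CPM values were centred on their group mean and correlated over the 12 libraries, which share depth and scaling within a library, and the coefficients are given as a description. For the 5p pairs alike in sequence, Pearson's r was 0.76 for miR-181a-5p with miR-181c-5p (Spearman's rho 0.71) and 0.62 for miR-181b-5p with miR-181d-5p (rho 0.64). For the 5p neighbours in the genome, r was 0.43 (rho 0.33) for miR-181a-5p with miR-181b-5p and 0.04 (rho 0.10) for miR-181c-5p with miR-181d-5p. The difference between these pairs was not tested, and other pairs reached similar values, with r of 0.77 for miR-181c-5p with miR-181c-3p, 0.68 for miR-181b-5p with miR-181a-2-3p and 0.66 for miR-181d-5p with miR-181a-2-3p. Both 3p arms of miR-181a varied together (r = 0.79, rho 0.78). Among the members, miR-181a-1-3p was closest to miR-181b-5p (r = 0.81, rho 0.80), made in part from the neighbouring hairpin. It was less close to miR-181a-5p (r = 0.44, rho 0.44), made only in part from the hairpin of miR-181a-1-3p.

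**Figure D4:**
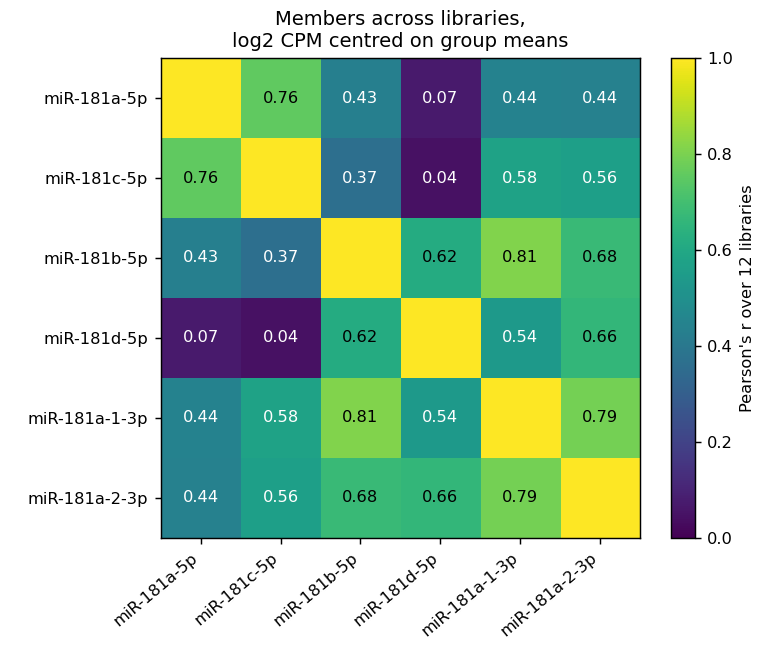
Pearson's r between members over the 12 libraries, in log2 CPM centred on group means, with 5p members ordered so that those alike in sequence are adjacent. The cell of miR-181a-5p with miR-181c-5p holds 0.76 and that of miR-181b-5p with miR-181d-5p 0.62, while miR-181c-5p with miR-181d-5p holds 0.04.

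Of the 337 other miRNAs that averaged 10 CPM or more, the 5 whose pattern over the 12 libraries was most like that of miR-181a-5p, again after centring, were ranked by Pearson's r. They began with miR-155-5p, a miRNA of activated immune cells (r = 0.86, rho 0.58, and r = 0.63 without the 2 libraries farthest from the median of miR-181a-5p). The second was miR-223-3p of neutrophils and macrophages (r = 0.83, rho 0.64, and 0.66 without those libraries). The third was miR-142a-5p, found across blood cells (r = 0.83, rho 0.74, and 0.73 without them). The last places went to miR-3074-5p (r = 0.80, rho 0.85, and 0.75 without them) and miR-27a-3p (r = 0.79, rho 0.76, and 0.82 without them). The order of these 5 rests on those 2 libraries: without them it ran the other way, with miR-27a-3p first and miR-155-5p last, and miR-155-5p was also last by Spearman's rho. All 5 were picked as the highest of 337, so the coefficients carry no p.

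A list of lymphoid and myeloid miRNAs, which holds miR-155-5p, miR-223-3p and miR-142a-5p from this ranking, was compared between the groups. Of 7 lymphoid and myeloid miRNAs tested, edgeR called 1 higher and 1 lower, where it called 9.88% higher and 11.4% lower among all 607 (21.3% in all), with a median log2 fold change of -0.27 against -0.03 over all tested miRNAs. Lower with PZH was miR-223-3p, at 629 ± 141 CPM with PZH and 943 ± 119 CPM with water (SD, n = 6 each; log2 fold change -0.58, edgeR adjusted p = 0.00583). Higher was miR-342-3p of lymphoid cells, at 2978 ± 445 CPM with PZH and 2231 ± 259 CPM with water (SD, n = 6 each; log2 fold change 0.42, edgeR adjusted p = 0.0109). The third named by its p, miR-142a-3p, stood at -0.32 (edgeR adjusted p = 0.0920), and miR-155-5p at -0.34 (edgeR adjusted p = 0.0951). From the ranking, miR-142a-5p stood at -0.27 (edgeR adjusted p = 0.240). The summed level of the 6 leukocyte markers was 5893 to 8730 CPM with PZH and 6489 to 8477 CPM with water, and none of the 6 was at 0. Their part in the levels of miR-181a-5p and miR-181b-5p was not tested.

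Among 9 inflammation-linked miRNAs tested, edgeR found 3 lower, with a median of -0.34, where 11.4% of all miRNAs were called lower. The lists were chosen with earlier results of these data known, so their counts are a description only. The lymphoid and myeloid list also holds miR-223-3p. DESeq2 called 2 of the 9 and limma-voom 3, where they called 23.7% and 19.9% of all tested miRNAs in either direction. Beside miR-223-3p the 3 lower by edgeR were miR-146a-5p, a brake on Toll-like receptor signalling (log2 fold change -0.47, edgeR adjusted p = 0.0130, and -0.39 with adjusted p = 0.0504 without water replicate 4), and miR-125a-5p (-0.34, edgeR adjusted p = 0.0474). For miR-125a-5p 15 of 20 alternatives gave no call, including DESeq2 and 8 of the single libraries left out. Of 13 stellate cell and TGF-beta miRNAs tested, 3 fell and 1 rose, with a median of 0.03, where 21.3% of all miRNAs were called in either direction. The collagen repressor miR-29c-3p fell (-0.40, edgeR adjusted p = 0.00583) in all 20 alternatives too. Its relatives miR-29a-3p (-0.21, edgeR adjusted p = 0.0289) and miR-29b-3p (-0.32, edgeR adjusted p = 0.0403) lost the call in 11 and 12 of 20, in each case with 6 or 7 of the single libraries left out among them. Higher was miR-221-3p (0.34, edgeR adjusted p = 0.0172), whose call ended with a replicate block (adjusted p = 0.050003).

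Of the markers of other liver cells, endothelial miR-126a-3p fell (-0.36, edgeR adjusted p = 0.00281) in all 20 alternatives too. Its partner arm miR-126a-5p (-0.33, edgeR adjusted p = 0.0445) lost the call in 16 of 20, among them 9 of the single libraries left out. Summed, both arms stood at 10272 to 13900 CPM with PZH and 12863 to 17096 CPM with water. For the 4 mesenchymal markers the summed level was 50191 to 87704 CPM with PZH and 60410 to 87877 CPM with water, and for the 3 erythroid markers 2536 to 4728 CPM with PZH and 3037 to 4915 CPM with water. In each of these lists edgeR, DESeq2 and limma-voom called 0. Each had 1 marker at an unadjusted edgeR p under 0.05, mesenchymal miR-145a-5p (log2 fold change 0.19) and erythroid miR-451a (-0.31). Of all tested miRNAs these tools called 21.3%, 23.7% and 19.9%, and 32.3% had such an unadjusted p. No marker was at 0 in all libraries. Of the 6 hepatocyte markers, 1 fell, miR-802-5p (-0.65, edgeR adjusted p = 0.0138), where edgeR called 11.4% of all tested miRNAs lower. The part of these cell types in the family's levels was not tested.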

How the data were processed

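The deposited table holds raw counts per mature miRNA, with no normalization, for 12 liver libraries. The submitters' processing notes list GRCm38 as the build, and as tools BWA, cutadapt, DESeq2 and FastQC. The counter, the annotation release and the treatment of reads that match several relatives are not stated there. No cell of the table held 1, while 3049 held 2, so detection means at least 2 counts. PZH was compared with water by edgeR 4.0.16 (quasi-likelihood, TMM, default filter, Benjamini-Hochberg over 607 miRNAs, R 4.3.3) on the deposited counts. SEs and 95% intervals come from its test statistic. DESeq2 1.42.0 and limma-voom (limma 3.58.1), other scalings and filters, a replicate block and the omission of each library were alternatives. The scripts were tested on simulated data. Sequences are from RefSeq, and all 6 members matched. Named miRNAs were the members, the other miR-181 arms and the 5 nearest patterns. The 3 smallest p-values of the lymphoid and myeloid, inflammation and stellate cell lists were named too. Some further miRNAs of these lists and some cell markers are also named. Members, lists and tests were chosen with earlier results of these data known. The labels number the samples within each group, name no batch and do not pair replicate numbers. Each sample was taken as a separate mouse.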

Additional observations from a re-analysis of the deposited data

Results flagged for a closer look

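Among 22 sets of 6 libraries examined for a sample far from the others, 1 stood out, where chance gives about 1 in 20. Water replicate 4 held 1364 CPM of miR-181a-5p, and the next water library held 1197 CPM. Without it the log2 fold change of miR-181a-5p was -0.13 (edgeR adjusted p = 0.363).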

How the results depend on the processing

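The number of called miRNAs ranged from 94 to 144 over the settings that kept all libraries, and from 99 to 139 when 1 library was left out, against 129. The number of called members was 1 with RLE scaling, 1 with the filter of 10 CPM and 1 with DESeq2, each time miR-181b-5p, and 0 in all other alternatives, including each library left out (range 0 to 0). Of 119 member fold changes under alternatives, 114 kept their direction and their side of the threshold. The sign of miR-181c-5p turned with the filter of 10 CPM (0.037) and without PZH replicate 1 (0.0076), and over the single libraries left out its fold change lay between -0.13 and 0.0076. With any 1 library left out, the log2 difference of the ratio of miR-181a-5p to miR-181b-5p lay between -0.50 and -0.42, that of miR-181c-5p to miR-181d-5p between -0.41 and -0.23, that of miR-181a-1-3p to miR-181a-2-3p between 0.08 and 0.37, and that of miR-181a-5p to both 3p arms between -0.017 and 0.13. The causes were not tested. Pseudocounts of 0.5 and 5 changed no call of a ratio. The median fold change of all miRNAs moved to -0.16 without a filter and to 0.07 with the filter of 10 CPM, against -0.03. The filter of 10 CPM left no value for miR-181a-2-3p.

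No pairing of libraries by replicate number was visible: same-numbered libraries correlated between -0.15 and 0.08, and 0 of 6 PZH libraries correlated best with its own number. With a replicate block edgeR called 0 members, and the ratio of miR-181a-5p to miR-181b-5p differed by -0.45 (exact sign-flip p = 0.0312, the smallest for 6 pairs). As all PZH ratios lay below all water ratios, any pairing would give that p, so it adds no further test.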
